A study of Mus musculus with 4 samples.

Results

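The 10 genes described here form the NRF2 and glutathione defence of the mouse stomach, as measured by RNA sequencing of bulk gastric tissue in WT and *Atp4b-cre;MycOE* mice. They are *Nfe2l2* and *Keap1*, which encode the transcription factor NRF2 and its inhibitor, and 8 genes of enzymes that NRF2 is known to switch on, *Gclc*, *Gclm*, *Gsr*, *Gpx2*, *Txnrd1*, *Srxn1*, *Nqo1* and *Hmox1*. They were taken by symbol, as 10 of the 46095 gene symbols of the count table, after the counts of the transgenic samples had been put back in register with the gene names. All 10 passed the filter on low counts. In the transgenic stomach *Gpx2*, *Gsr* and *Gclc* were higher by 1.56-fold to 1.91-fold, *Nqo1* was 3.51-fold lower, and the other 6 genes did not pass the test.

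NRF2 is made continuously and is held in the cytoplasm by KEAP1, which hands it to an ubiquitin ligase for degradation. Oxidants and electrophiles modify cysteines of KEAP1, and NRF2 then accumulates, pairs with a small MAF protein and binds antioxidant response elements near genes that make and recycle glutathione, reduce peroxides and inactivate quinones and heme. The stomach lining meets acid, food-borne electrophiles and the oxidants of its own mitochondria-rich parietal cells, and this system is one of its known defences.

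Both genotypes were C57BL/6 mice at 12 weeks of age, with 2 WT and 2 *Atp4b-cre;MycOE* samples, called MYC-KI here as in the sample titles. A human *c-Myc* transgene is switched on by Cre recombinase under the *Atp4b* promoter, which limits it to parietal cells and their lineage, and the study's methods give these mice as Myc fl/+ with Cre. The WT controls were Myc fl/fl littermates, and the methods state that both sexes were used. The design text speaks of triplicates, and 2 samples per genotype were analysed here. The table has no row of its own for the human transgene. Mouse *Myc* was counted 1062 and 759 times in WT and 735 and 1091 times in MYC-KI (log2 fold change −0.35, edgeR adjusted p = 0.163), so the table offers no direct check of overexpression. The counts summed to between 30260305 and 41463647 per sample. *Xist* had 17846 counts in WT replicate 2 and 85 to 201 in the other samples, and the Y-linked *Ddx3y* had 5 against 1861 to 2623. By these sex-linked genes WT replicate 2 stands apart, with the pattern of a female, and the other samples have that of a male. Sex was thus mixed in WT and not in MYC-KI. The labels do not say that the replicates are separate animals, and p-values measure only the spread between these samples.

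The deposited MYC-KI counts do not stand beside their own gene names. Between the genotypes, Pearson's r of log2(count + 1) across all genes was 0.524 as deposited and 0.985 once the MYC-KI counts had been given, in their row order, to the names sorted by character code (genes are not independent replicates). Every one of the 10 rows moved, 6 of them by 1 row, *Nfe2l2* and *Nqo1* by 2 rows, and *Txnrd1* and *Srxn1* by 397 rows. Around each gene, over the 61 nearest rows, r between the genotypes lay between −0.173 for *Nqo1* and 0.528 for *Keap1* as deposited, and between 0.965 for *Keap1* and 0.994 for *Txnrd1* after the move. The deposited MYC-KI counts beside *Nqo1* were 0 and 0 and belong to *Nr0b1*, those beside *Gpx2* were 5 and 2 and belong to its pseudogene *Gpx2-ps1*, and those beside *Gclc* were 2691 and 3838 and belong to *Gclm*. As deposited, the fitted log2 fold change of *Gpx2* was −10.46 and that of *Gsr* was −0.68. The directions given from here on are those of the re-sorted table.

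**Figure D1:**
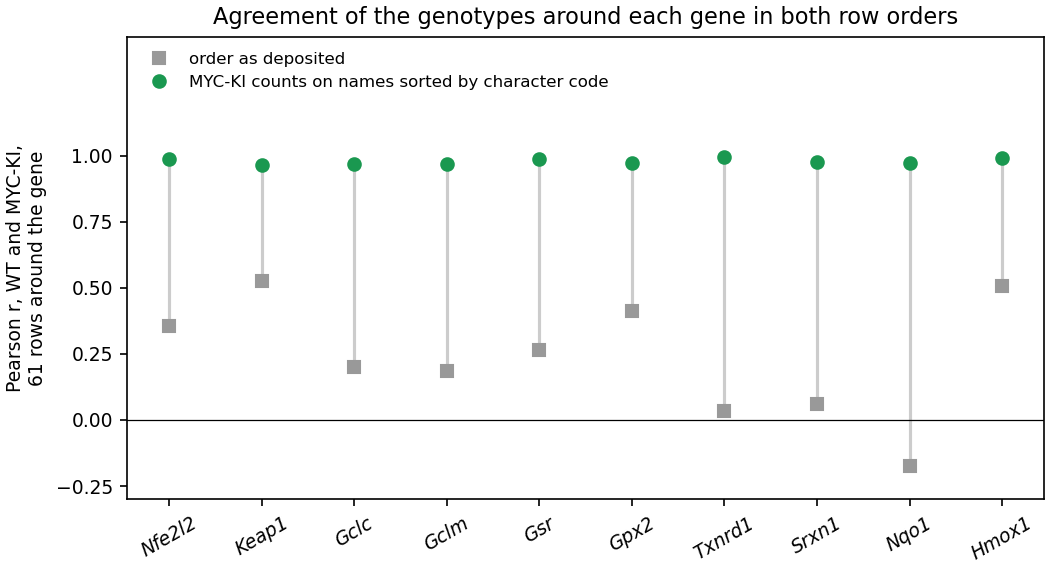
Pearson's r of log2(count + 1) between WT and MYC-KI over the 61 rows around each gene, in the deposited order and after re-sorting the MYC-KI counts. All 10 genes lie at or below 0.528 in the deposited order and at or above 0.965 after re-sorting.

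The promoters of the genes that differed most in opposite directions, *Gpx2* and *Nqo1*, are shown with that of *Srxn1*, the only one of the 7 genes with a window that has more than 1 match to the motifs searched. The windows run from 250 bases before to 50 bases after the start of the gene, come from RefSeq on GRCm38.p6, and are written 5′ to 3′ on the strand of the gene, at chr12:76795505-76795804 (minus strand) for *Gpx2*, chr8:107403156-107403455 (minus strand) for *Nqo1* and chr2:152105274-152105573 (plus strand) for *Srxn1*. Capitals mark matches to TGACNNNGC, the core of the antioxidant response element, and to TGANTCAGC, the related element that NRF2 binds with small MAF proteins, each searched on both strands.
Gpx2: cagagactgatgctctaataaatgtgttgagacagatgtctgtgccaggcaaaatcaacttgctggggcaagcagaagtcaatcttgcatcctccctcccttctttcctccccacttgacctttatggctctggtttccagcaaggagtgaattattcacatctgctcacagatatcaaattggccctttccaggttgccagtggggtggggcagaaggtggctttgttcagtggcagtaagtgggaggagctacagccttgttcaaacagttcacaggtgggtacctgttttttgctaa
Nqo1: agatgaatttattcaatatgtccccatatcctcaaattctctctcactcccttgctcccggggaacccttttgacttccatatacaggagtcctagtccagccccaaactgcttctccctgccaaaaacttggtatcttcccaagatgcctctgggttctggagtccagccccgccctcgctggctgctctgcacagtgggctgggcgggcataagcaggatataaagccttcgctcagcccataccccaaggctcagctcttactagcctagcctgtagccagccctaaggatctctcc
Srxn1: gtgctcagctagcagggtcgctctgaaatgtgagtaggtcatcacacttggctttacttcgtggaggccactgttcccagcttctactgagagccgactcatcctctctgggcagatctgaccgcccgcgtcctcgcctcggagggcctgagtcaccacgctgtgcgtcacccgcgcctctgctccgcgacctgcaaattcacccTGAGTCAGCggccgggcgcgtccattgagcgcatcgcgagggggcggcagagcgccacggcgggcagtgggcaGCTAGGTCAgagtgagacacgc
Neither the *Gpx2* nor the *Nqo1* window holds a match, which says only that these letters are not within these 300 bases. *Srxn1* has TGAGTCAGC 45 bases before its start and, on the opposite strand, GCTAGGTCA 28 bases after it. Windows were found for 7 of the 10 genes, 9 windows in all, and none for *Hmox1*, *Gclc* and *Gsr*. TGACNNNGC also occurs in *Nfe2l2* as TGACTCCGC, 240 bases before the start, in *Gclm* as GCACCGTCA, 134 bases before it, and in one of the *Txnrd1* windows as GCTTTGTCA, 92 bases before it. The motif is held by 12.4% of all 32851 windows, TGANTCAGC, a motif added after the sequences had been seen, by 1.19%, and CACGTG, the E-box that MYC binds with MAX, by 7.15% of all windows and by none of these 9. No 2 of these matches overlap.

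Neither regulator passed the test. Levels are given as normalized CPM (library-scaled counts, adjusted by edgeR's TMM factors), and a gene is called where the Benjamini-Hochberg adjusted p of edgeR's quasi-likelihood test is under 0.05 and the fold change is over 1.5. *Nfe2l2* (chr2:75675513-75704641, minus strand), which encodes NRF2 itself, had 497 and 458 normalized CPM in WT and 352 and 436 in MYC-KI. Both MYC-KI values lay below both WT values, but the log2 fold change of −0.28 ± 0.14 (SE) had a 95% interval from −0.65 to 0.09 (adjusted p = 0.239). *Keap1* (chr9:21229730-21239361, minus strand), the adaptor that marks NRF2 for degradation, had 75.5 and 68.5 normalized CPM in WT and 87.5 and 73.7 in MYC-KI. These groups overlapped, with a log2 fold change of 0.16 ± 0.12 and an interval from −0.16 to 0.48 (adjusted p = 0.402). mRNA levels do not measure how much NRF2 protein reaches the nucleus.

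**Figure D2:**
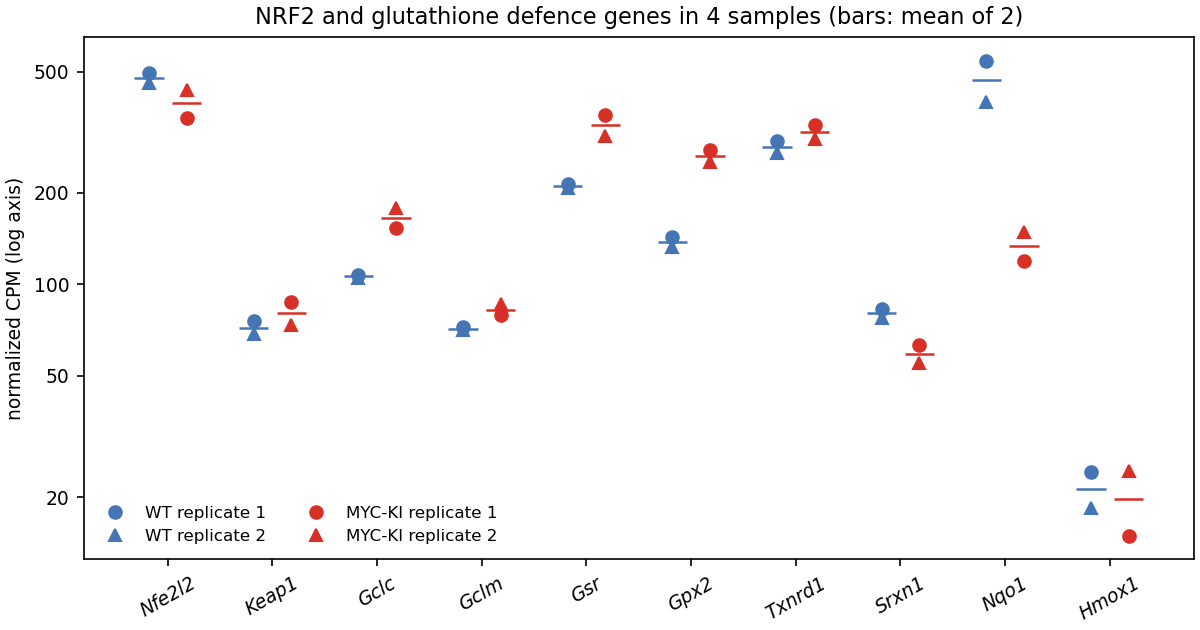
Normalized CPM of the 10 genes in each of the 4 samples, on a log axis, with a bar at the mean of each genotype. The MYC-KI points lie above both WT points in *Gclc*, *Gclm*, *Gsr*, *Gpx2* and *Txnrd1*, below both in *Nfe2l2*, *Srxn1* and *Nqo1*, and overlap them in *Keap1* and *Hmox1*.

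Of the 3 genes that make and recycle glutathione, *Gclc* and *Gsr* were called higher in MYC-KI and *Gclm* did not pass the test. Among all 10 genes 3 were called higher and 1 lower, where 5.65% of the 17643 genes tested were called higher and 5.08% lower. The MYC-KI samples both lay above the WT samples in 5 of the 10 genes and both below in 3, where 33.3% and 31.5% of all tested genes did so, and 2 overlapped.

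*Gclc* (chr9:77754535-77794485, plus strand) encodes the catalytic subunit of glutamate-cysteine ligase, the rate-limiting enzyme of glutathione synthesis. It had 107 and 105 normalized CPM in WT and 153 and 178 in MYC-KI. The MYC-KI mean of 166 ± 17.5 (SD, n = 2) was 1.56-fold above the WT mean of 106 ± 1.39 (SD, n = 2), a log2 fold change of 0.64 ± 0.10 (SE; edgeR adjusted p = 0.0348). *Gclm* (chr3:122245557-122270732, plus strand) encodes the modifier subunit, which lets the ligase work at the glutamate levels of the cell. It had 72.3 and 70.5 normalized CPM in WT and 79.3 and 85.9 in MYC-KI, so both MYC-KI samples were higher, by less than the threshold (log2 fold change 0.21 ± 0.08, 95% interval −0.0097 to 0.43, adjusted p = 0.158). The counts of *Gclm* may share reads with *Gm6061*, which overlaps it on the same strand and had 168 to 379 counts per sample against 1968 to 3838.

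*Gsr* (chr8:33652523-33698163, plus strand) encodes glutathione reductase, which uses NADPH to return oxidised glutathione to its reduced form. It had 213 and 208 normalized CPM in WT and 360.4 and 306 in MYC-KI, with no overlap. The means were 210.3 ± 3.92 and 333 ± 38.2 (SD, n = 2 each), 1.59-fold apart (log2 fold change 0.66 ± 0.11, 95% interval 0.37 to 0.96, edgeR adjusted p = 0.0366). *Gclc* and *Gsr* lie close to the fold threshold, which is 0.585 on the log2 scale. *Gclc* fell under it at 0.53 without MYC-KI replicate 2, and *Gsr* at 0.54 without MYC-KI replicate 1.

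Among the genes that reduce peroxides and thiols, *Gpx2* rose and the other two did not pass the test. *Gpx2* (chr12:76792333-76795554, minus strand) encodes the glutathione peroxidase typical of the epithelium of the gut, which reduces hydrogen peroxide and lipid hydroperoxides at the cost of glutathione. Its counts were 4806 and 3715 in WT and 9359 and 11306 in MYC-KI, which is 143 and 133 against 276 and 253 normalized CPM. The means of 138 ± 7.10 and 265 ± 16.1 (SD, n = 2 each) differed 1.91-fold (log2 fold change 0.94 ± 0.09, 95% interval 0.69 to 1.19, edgeR adjusted p = 0.0198), the largest rise among the 10 genes. *Gpx2* overlaps *Fntb* on the opposite strand, and the sources used here do not state whether counting used strand. *Fntb* was called higher too, with a log2 fold change of 0.67 (adjusted p = 0.0427), at counts of 536 and 474 in WT and of 932 and 1122 in MYC-KI, well below those of *Gpx2*. The processed pseudogene *Gpx2-ps1*, which resembles *Gpx2*, had at most 5 counts in any sample.

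*Txnrd1* (chr10:82833951-82897712, plus strand) encodes the cytosolic thioredoxin reductase, a selenoprotein that carries electrons from NADPH to thioredoxin. It had 295 and 269 normalized CPM in WT and 335 and 299.7 in MYC-KI. Both MYC-KI samples were higher, but by little against their spread (log2 fold change 0.17 ± 0.10, interval −0.11 to 0.45, edgeR adjusted p = 0.323). *Eid3*, which overlaps *Txnrd1* on the same strand, was counted 10 and 7 times in WT and 42 and 44 times in MYC-KI, against 7515 to 13389 for *Txnrd1*.

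*Srxn1* (chr2:152105516-152111376, plus strand) encodes sulfiredoxin, which restores peroxiredoxins whose cysteine has been overoxidised. It had 83.3 and 77.3 normalized CPM in WT and 63.1 and 55.1 in MYC-KI, so both MYC-KI samples were lower. The log2 fold change was −0.44 ± 0.10, with an interval from −0.72 to −0.16, and missed the call in size and in adjusted p (0.0631). With DESeq2 the adjusted p was 0.0157 at a log2 fold change of −0.45, which is still short of the fold threshold.

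*Nqo1* showed the largest difference of the 10 genes and the only fall that passed the test. *Nqo1* (chr8:107388225-107403206, minus strand) encodes NAD(P)H quinone dehydrogenase, which reduces quinones in a single step that avoids semiquinone radicals, and is a common readout of NRF2 activity. Its counts were 18258 and 11057 in WT and 4042 and 6659 in MYC-KI, which is 544 and 396 normalized CPM against 119 and 149. The groups were far apart even though the WT samples differed from each other. The WT mean of 470.2 ± 104 was 3.51-fold above the MYC-KI mean of 134 ± 21.1 (SD, n = 2 each), with a log2 fold change of −1.81 ± 0.21 (SE; 95% interval −2.37 to −1.24, edgeR adjusted p = 0.0228).

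*Hmox1* (chr8:75093621-75100589, plus strand) encodes heme oxygenase 1, which breaks heme down to biliverdin, carbon monoxide and iron and is made mainly by macrophages and stressed cells. It had 24.2 and 18.4 normalized CPM in WT and 14.9 and 24.4 in MYC-KI. Both WT values lay between the MYC-KI values, and the log2 fold change of −0.12 ± 0.30 had an interval from −0.91 to 0.68 (edgeR adjusted p = 0.818). Its sign was not stable, with 0.11 under library size without scaling factors and a range from −0.51 to 0.19 when single samples were left out. In the same samples the summed level of 10 macrophage markers was 372 and 386 normalized CPM in WT and 157 and 153 in MYC-KI. Of these markers 7 were called lower and 1, *Cd14*, higher, none was at 0 in every sample, and their part in the level of *Hmox1* was not tested.

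All 4 calls rest on both WT samples. Without WT replicate 1 or without WT replicate 2 edgeR called none of all genes tested, against 3554 and 3410 genes at an unadjusted p under 0.05, and the smallest adjusted p values were 0.196 and 0.232. The fold changes of these 4 genes kept their direction. Without WT replicate 2, the sample that stands apart in *Xist* and *Ddx3y*, the log2 fold changes were 0.63 for *Gclc*, 0.64 for *Gsr*, 0.88 for *Gpx2* and −2.02 for *Nqo1*, and without WT replicate 1 they were 0.65, 0.68, 0.99 and −1.56 in the same order.

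**Figure D3:**
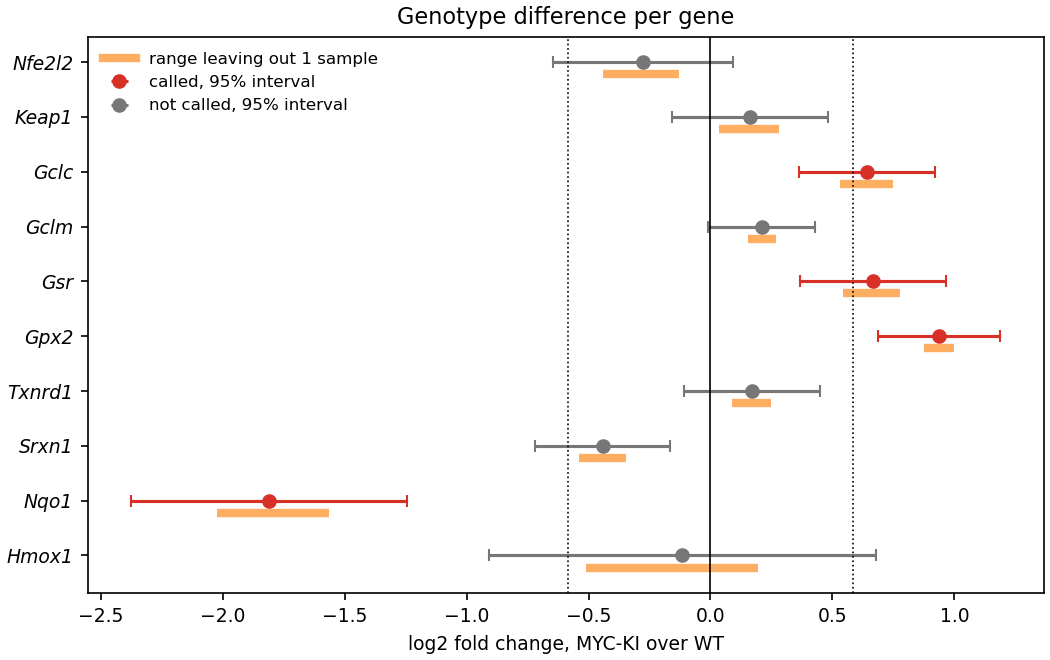
Log2 fold change of MYC-KI over WT for each gene, with its 95% interval and, below it, the range when 1 sample is left out. *Nqo1* lies at −1.81, *Gclc*, *Gsr* and *Gpx2* lie between 0.64 and 0.94, and the dotted lines mark the 1.5-fold threshold.

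Set per kilobase of exon, so that genes of different length can be compared, the order of the levels differed between the genotypes. In WT, *Nqo1* had the highest level at 350.3 and 255 normalized CPM per kb, above *Nfe2l2* at 131 and 121 and *Gsr* at 77.4 and 75.3. In MYC-KI, *Gsr* stood at 131 and 111, *Nfe2l2* at 92.7 and 115 and *Nqo1* at 76.7 and 96.0 normalized CPM per kb. The ranges of *Gsr* and *Nfe2l2* overlapped there, as did those of *Nfe2l2* and *Nqo1*. *Gpx2* stood next in both genotypes, with 44.4 and 41.3 in WT and 85.6 and 78.6 in MYC-KI, where its range lay within that of *Nqo1*. *Txnrd1* followed, with a mean of 39.8 in WT and 44.8 normalized CPM per kb in MYC-KI. *Srxn1* and *Gclc* did not differ beyond their spread in WT, at means of 28.5 and 28.2 per kb, and stood at 21.0 and 44.0 in MYC-KI. *Keap1*, *Hmox1* and *Gclm* had the lowest levels, with means from 11.4 to 15.3 per kb in WT and from 11.2 to 17.2 in MYC-KI. The lengths are merged exons of GENCODE M21 and may not be those of the annotation used for counting.

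The other genes of the pathway were described with 9 lists that hold 147 tested genes beside these 10. Of these, 9 were called higher and 13 lower, 15.0% in all against 10.7% of all genes tested. Their median log2 fold change was −0.19, beside 0.17 for the 10 genes and 0.01 for all genes. Under library size without scaling factors the calls were 21 higher and 10 lower, and under DESeq2 9 higher and 23 lower, so which direction held more calls changed without the scaling factors.

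Of 18 regulators and partners of NRF2, 3 were called higher and none lower, with a median log2 fold change of 0.06. *Nfe2l3*, a transcription factor of the same family, had counts of 228 and 171 in WT and of 699 and 802 in MYC-KI (log2 fold change 1.58 ± 0.17, edgeR adjusted p = 0.0204). *Mafg*, one of the small MAF partners of NRF2, had 66.9 and 64.4 normalized CPM in WT and 99.3 and 108 in MYC-KI (0.66 ± 0.08, adjusted p = 0.0255). *Palb2*, a DNA repair protein that can bind KEAP1, rose from 2.50 and 1.90 to 6.16 and 6.27 normalized CPM (1.49 ± 0.27, adjusted p = 0.0417).

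Of 13 genes of glutathione synthesis and supply, 1 was called higher and 2 lower, with a median of −0.55. *Ggt6*, of the gamma-glutamyltransferase family, had 6.79 and 6.95 normalized CPM in WT and 14.1 and 16.9 in MYC-KI (log2 fold change 1.17 ± 0.18, edgeR adjusted p = 0.0316). *Chac1*, which degrades glutathione and is a known target of the stress factor ATF4, fell from 8.73 and 9.18 to 3.01 and 4.19 (−1.31 ± 0.26, adjusted p = 0.0471). *Cbs*, the first enzyme of the route from homocysteine to cysteine, fell from 12.8 and 13.2 to 5.72 and 4.77 (−1.31 ± 0.19, adjusted p = 0.0305).

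The 32 other peroxidases, transferases and glutaredoxins that use glutathione held 4 genes called lower and none higher, with a median of −0.33. *Gstk1*, a transferase of mitochondria and peroxisomes, fell from 80.9 and 66.2 to 31.6 and 27.9 normalized CPM (log2 fold change −1.31 ± 0.14, edgeR adjusted p = 0.0208). *Gpx3*, the secreted glutathione peroxidase, fell from 150.3 and 181 to 56.8 and 78.5 (−1.29 ± 0.20, adjusted p = 0.0329), while its relative *Gpx2* rose in the same samples. *Gstt1* fell from 40.4 and 36.0 to 19.3 and 14.8 (−1.17 ± 0.17, adjusted p = 0.0316).

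Of 17 other genes of the thioredoxin and peroxiredoxin system, 1 was called higher and 2 lower, with a median of 0.09. *Prdx6*, a peroxiredoxin that takes its electrons from glutathione, rose from 137 and 133 to 312 and 260.5 normalized CPM (log2 fold change 1.08 ± 0.12, edgeR adjusted p = 0.0212). *Prdx5*, a peroxiredoxin of mitochondria and peroxisomes that uses thioredoxin, fell from 184 and 169 to 86.3 and 96.2 (−0.95 ± 0.10, adjusted p = 0.0201). *Msra*, which repairs oxidised methionine, fell from 51.7 and 47.8 to 32.5 and 31.5 (−0.64 ± 0.09, adjusted p = 0.0305).

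NADPH is what *Gsr* and *Txnrd1* consume, and of 11 genes of its supply 1 was called higher and 1 lower (median 0.22). *Me1*, the cytosolic malic enzyme, rose from 433 and 505 to 694 and 789.7 normalized CPM (log2 fold change 0.66 ± 0.13, edgeR adjusted p = 0.0462), and *Idh2*, the mitochondrial isocitrate dehydrogenase, fell from 179 and 155 to 77.1 and 81.8 (−1.08 ± 0.11, adjusted p = 0.0198). Of 14 genes that make or remove superoxide and hydrogen peroxide, 1 was called higher and 3 lower (median −0.57). Catalase, *Cat*, which splits hydrogen peroxide in peroxisomes, had an edgeR log2 fold change of −1.19 ± 0.10 (adjusted p = 0.0171), the mitochondrial superoxide dismutase *Sod2* had −0.70 ± 0.09 (adjusted p = 0.025), and *Cybb*, the oxidase of phagocytes, had −1.39 ± 0.18 (adjusted p = 0.0262), which stands beside the lower macrophage marker sum given above. *Cyba*, the partner subunit of that oxidase, was higher with 0.74 ± 0.09 (adjusted p = 0.0236).

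Of 25 detoxication and export genes 1 was called higher and 1 lower (median −0.28), the exporters *Abcc4* (log2 fold change 0.67 ± 0.13, edgeR adjusted p = 0.0482) and *Abcc5* (−1.07 ± 0.16, adjusted p = 0.0309). None of 9 genes of heme breakdown and iron storage was called by edgeR, with 2 at an unadjusted p under 0.05 and 1 called by DESeq2 (median −0.36). The lowest point of that list, *Hrg*, named after its values were seen, had counts of 0 and 124 in WT and of 1 and 18 in MYC-KI, and its log2 fold change of −3.28 ± 2.27 rests on WT replicate 2. Of 8 genes of selenoprotein synthesis, on which *Gpx2* and *Txnrd1* depend, 1 was called higher (median 0.21). It was *Sephs2*, which makes the selenium donor (0.77 ± 0.11, adjusted p = 0.0294).

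**Figure D4:**
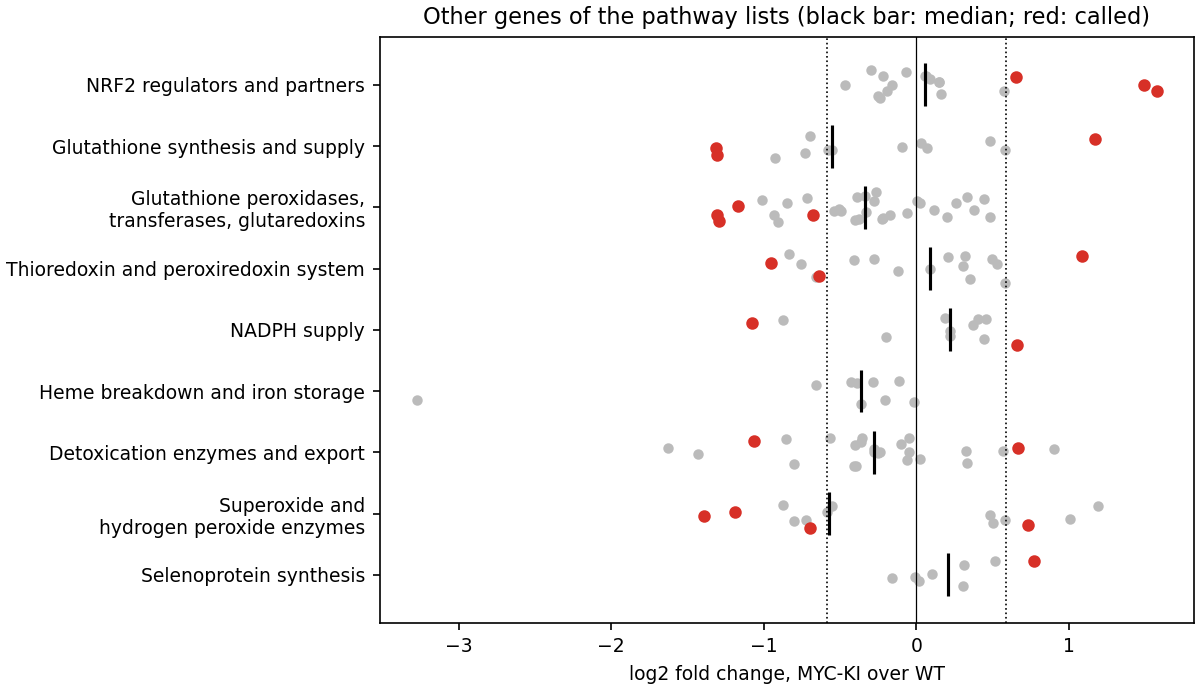
Log2 fold change of MYC-KI over WT for each of the 147 tested genes of the 9 pathway lists, with called genes in red, a bar at each median and dotted lines at the 1.5-fold threshold. Called genes number 9 higher and 13 lower, and the list of peroxidases, transferases and glutaredoxins holds 4 of those lower and none higher.

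Marker genes of several cell types differed between the genotypes, and in bulk tissue fewer cells of a type and less RNA per cell cannot be told apart. In stained sections at the same age, the study describes the loss of parietal and chief cells as slight. All 10 parietal markers were called lower, with a summed level of 12718 and 12904 normalized CPM in WT and 552 and 578 in MYC-KI. Of 5 tested chief cell markers 4 were lower, with sums of 84853 and 80511 against 1198 and 1518, and *Lipf* was at 0 in every sample. All 5 surface mucous markers were lower, 48736 and 57961 against 11683 and 18430 in sum. Mucous neck markers summed to 12260 and 15186 in WT and 26134 and 11118 in MYC-KI, with 1 of 6, *Wfdc2*, called higher. Squamous markers of the forestomach summed to 2784 and 1594 against 1090 and 4855, with 1 of 14, *Anxa8*, called higher. Pancreatic acinar markers, of which *Cpa1* and *Prss2* were at 0, summed to 184 and 146 against 17.8 and 15.7, with 3 of 6 tested called lower. Without *Clps*, the highest of them, they summed to 39.1 and 26.7 in WT and 16.7 and 14.9 in MYC-KI. For 9 intestinal markers (sums of 1809 and 1756 against 2255 and 1282) and 7 smooth muscle markers (7754 and 4906 against 2521 and 5386) neither edgeR nor DESeq2 made a call, and none was under 0.05 unadjusted. *Clca1* had the highest level of the intestinal list, and without it the intestinal sums were 964 and 317 normalized CPM in WT and 1050 and 106 in MYC-KI. Most of this remainder was *Alpi*, at 716 and 198 normalized CPM in WT and 799 and 66.4 in MYC-KI. The sum without *Clca1* thus differed several-fold within each genotype, and 7 of the 9 markers were higher in replicate 1 than in replicate 2 in both. In WT, *Clca1* (845 and 1439) and *Cdx2* (10.2 and 10.4) were not higher in replicate 1. The part of these shifts in the lower *Nqo1* and the higher *Gpx2*, *Gsr* and *Gclc* was not tested. Nor was the part of the loss of parietal and chief cell transcripts in the lower *Gpx3*, *Prdx5*, *Idh2* and *Cat*.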

How the data were processed

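The authors deposited 1 table of raw read counts, not normalized, with 46095 mouse gene symbols and 1 column for each of the 4 samples. The submitters' processing notes name HISAT2 and mm10. The counting tool, the annotation and the use of strand are not given in the sources used here, and the study's own comparison used DESeq2. Every column was matched to a sample by its name. Counts of both MYC-KI columns were assigned in row order to the names sorted by character code, which uses no count value; the deposited order was kept as an alternative. The members and gene lists were chosen with earlier results of these data known.

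For the test, edgeR 4.0.16 ran in R 4.3.3 (TMM, filterByExpr by genotype, glmQLFit and glmQLFTest, no covariate) over 17643 genes. Calls needed a Benjamini-Hochberg adjusted p under 0.05 and a log2 fold change beyond 0.585 in size. SE is the absolute log2 fold change over the root of the F statistic. Replicates of a genotype differed beyond counting noise (chi-square per degree of freedom 31.1 in WT and 105.9 in MYC-KI). A count of 0 allows up to 3 counts, for counting error only. The script was tested on simulated data. Coordinates are GENCODE M21 on GRCm38 (mm10). In addition to the 10 genes, up to 3 called genes with the largest rise and 3 with the largest fall are named per pathway list. Genes that overlap a member, *Myc*, *Xist* and *Ddx3y*, and single called or absent markers were named after their values were seen. The alternatives tried were leaving out each sample, the replicate number as a block, a log2 fold change beyond 1, DESeq2 1.42.0, DESeq2 size factors in edgeR, unscaled library sizes, and either no low-count filter or a minimum of 10 counts in each of the samples.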

Additional observations from a re-analysis of the deposited data

How the results depend on the processing

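Against 1892 genes, 4 of the 10 members and 22 list genes called in the re-sorted table, the deposited order gave 18580, 9 and 121, and an absolute log2 fold change above 1 gave 1113, 1 (*Nqo1*) and 13. With no fold change threshold, 2274 genes, 4 members and 31 list genes were called. Over all genes, DESeq2 called 3232 and library size without scaling factors 3011. Without scaling factors the median log2 fold change of all genes moved from 0.01 to 0.23 and the share of higher calls from 52.6% to 75.5%, and *Hmox1* turned to 0.11. In the deposited order 7 members reversed, with fitted log2 fold changes of −12.05 for *Keap1*, −0.30 for *Gclc*, −8.55 for *Gclm*, −0.68 for *Gsr*, −10.46 for *Gpx2*, −3.37 for *Txnrd1* and 0.86 for *Hmox1*. The value of *Keap1*, with at most 1 deposited count in MYC-KI, depends on the prior count. Leaving out 1 sample gave 0 to 2470 genes, 0 to 3 members, and 0 to 31 list genes, and *Hmox1* ranged from −0.51 to 0.19. The counts of 0 came from edgeR without WT replicate 1 or 2, where 4 and 5 members and 41 and 47 list genes were at an unadjusted p under 0.05. The lone sample is there assumed to vary like the other genotype.

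The replicate numbers are shared by both genotypes, and neither the labels nor the study's methods tie equal numbers to a shared litter or day. Across genes, r between the replicate differences of the genotypes was 0.064, and with 2 pairs this does not settle whether equal numbers share anything. In 7 of 9 intestinal markers replicate 1 was above replicate 2 in both genotypes, and in all 5 surface mucous markers replicate 2 was above replicate 1 in both. The fit without the pairing was kept. With the replicate number as a block, edgeR called 114 genes, 0 members and 0 list genes, against 5178, 5 and 64 at an unadjusted p under 0.05. The log2 fold changes in that fit were 0.64 for *Gclc*, 0.66 for *Gsr*, 0.94 for *Gpx2* and −1.80 for *Nqo1*.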
